A study of Mus musculus with 9 samples.

Results

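The primary tumours of a breast cancer and a pancreatic ductal adenocarcinoma (PDAC) mouse model were compared across all genes, using the 4 primary-tumour libraries of a series of 9 libraries of sorted tumour cells. The 2 breast cancer (BC) primaries, numbered 1 and 5, held GFP-sorted cells of tumours derived from 4T1-eGFP, a fluorescently labelled mouse mammary carcinoma line, at 28 days. The 2 PDAC primaries, also numbered 1 and 5, held YFP-sorted cells. The alleles in both labels included p48-Cre, p53F/+ and ROSA-LSL-YFP. PDAC primary 1, at 25.67 weeks, was labelled with SIRT6F/F as well, and PDAC primary 5, at 28.95 weeks, was not, so the 2 are not replicates of 1 genotype. The BC tumours come from 1 established cell line grown in the mouse and the PDAC tumours from an allele combination active in the pancreas, so tissue of origin, mode of growth, reporter and time cannot be told apart. The p48 gene (Ptf1a) is active in embryonic pancreatic progenitors and in acinar cells, and Cre under its control switches on the YFP reporter in their descendants. The other 5 libraries, 2 BC lung metastases and 3 PDAC metastases, were used only to estimate the spread and as outside samples.

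Ductal adenocarcinoma of the pancreas keeps features of simple ductal epithelium, such as keratins 7 and 19 and mucins, and its precursor lesions often take on genes of the stomach lining. The 4T1 line came from a mouse mammary carcinoma and is widely used as a model of metastatic breast cancer, with both epithelial and mesenchymal features. GATA3 is the transcription factor of the luminal mammary lineage, and HOX genes keep a record of the position along the body at which a cell arose.

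Before any gene is described, the 2 PDAC primaries have to be set beside each other, because they differed more than the 2 BC primaries. Across 12832 tested genes (genes, not replicates), the Pearson correlation of log2 values was 0.953 between the BC primaries and 0.552 between the PDAC primaries. PDAC primary 1 contained transcripts of blood and lymphoid cells: haemoglobin genes made up 10.9% of its summed RPKM (reads scaled to gene length and to library size) and immunoglobulin genes 11.7%. In PDAC primary 5 these were 0.0582% and 0.000586%, and in the BC primaries at most 0.00841% and 0.0102%. PDAC primary 5 had few detected genes. It listed 10410 genes above 0, against 15907 in PDAC primary 1 and 18685 and 20478 in BC primaries 1 and 5, and 2615 of the 9586 genes at 1 RPKM or more in both BC primaries were listed at 0 there (423 in PDAC primary 1). Reads on genes, estimated from the values and gene lengths, came to about 96600000 and 128000000 for BC primaries 1 and 5, and to 59300000 and 40300000 for PDAC primaries 1 and 5. Every result below is therefore given with both PDAC values, and a 0 means that the table lists the gene at 0. In sorted bulk samples, fewer cells of a type and less RNA per cell cannot be told apart.

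**Figure D1:**
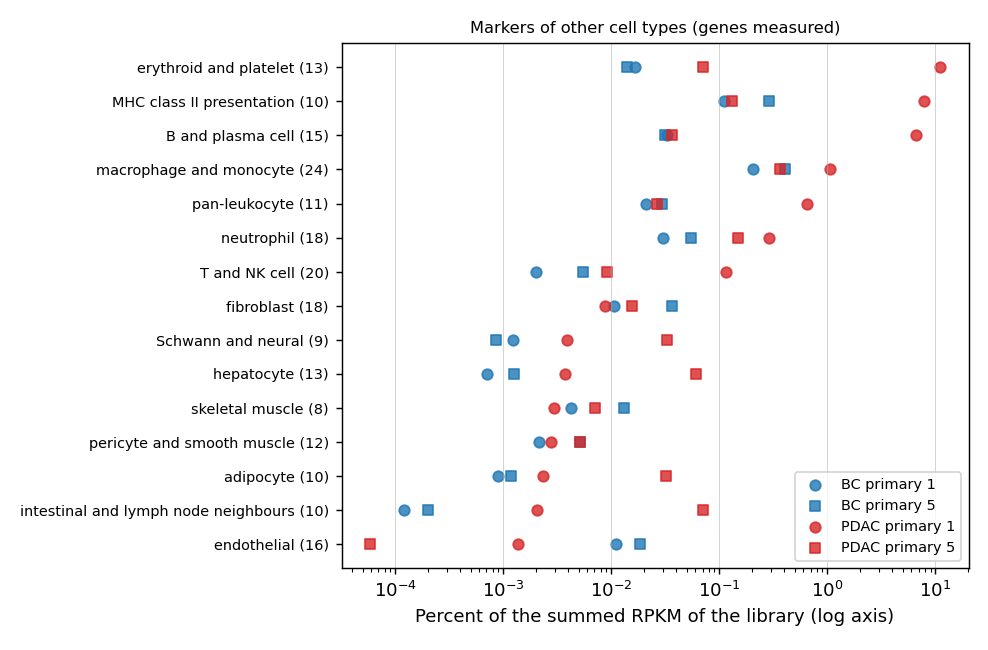
Markers of other cell types in the 4 primaries, as the percent of each library's summed RPKM taken by each marker list, on a log axis, with circles for number 1 and squares for number 5. PDAC primary 1 stands to the right of the other 3 libraries for erythroid (11.0%), MHC class II (7.85%) and B cell (6.55%) markers.

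Several marker lists of other cell types showed the same contrast, and others did not. The 15 measured B and plasma cell genes took 6.55% of PDAC primary 1 and 0.031 to 0.036% of the other 3 primaries, with the receptor subunit Cd79a at 1719 and 0.11 RPKM in PDAC primaries 1 and 5. The 11 pan-leukocyte genes took 0.651% of PDAC primary 1, and between 0.021% and 0.030% elsewhere. Ptprc, which encodes the leukocyte antigen CD45, was at 0.316 and 1.4 against 23.9 and 0.00549 RPKM. Macrophage genes took 0.205 and 0.402% of the BC primaries and 1.05 and 0.361% of the PDAC primaries. Of these, Cd14 (34.9 and 32.6 against 929 and 417 RPKM), Fcer1g (32.5 and 46.7 against 392 and 173 RPKM), Tyrobp (24.8 and 39.8 against 474 and 139 RPKM) and Ctss (47 and 79.1 against 858 and 225 RPKM) were set apart as higher in both PDAC primaries, meaning that each PDAC value plus 1 RPKM was at least 2 times each BC value plus 1. In PDAC primary 5, other defining myeloid genes were listed at 0 or near it, including Csf1r at 0, Adgre1 at 0 and Fcgr3 at 0.0183 RPKM. Some leukocyte genes were also higher in PDAC primary 5 than in the BC primaries: Cd52 was at 5.82 and 10.8 against 531 and 24.1 RPKM and Cd53 at 4.61 and 6.13 against 148 and 35.1 RPKM. In the T cell and MHC class II lists, Trbc1, Trbc2 and H2-Ab1 were set apart as higher. Neutrophil genes took 0.286% of PDAC primary 1 and 0.149% of PDAC primary 5, against 0.030 and 0.054% of the BC primaries. In PDAC primary 5 most of this was Ltf and Lcn2 (352 and 340.0 RPKM), which epithelium also makes, while S100a8, S100a9 and Ngp were at 9.28, 2.39 and 1.31 RPKM. Erythroid genes took 0.0702% of PDAC primary 5, above the 0.0167 and 0.0139% of the BC primaries. Hepatocyte (0.0606%), adipocyte (0.0320%) and Schwann cell (0.0327%) lists were highest in PDAC primary 5. Over all lists of other cell types, 20 of 206 measured genes (9.71%) were set apart as higher and 9 (4.37%) as lower, against 2.62% and 7.08% of all genes. Among the 12832 tested genes alone, 623 were set apart as higher and 1684 as lower, which are larger shares. Endothelial genes took at most 0.0183% in any primary, and fibroblast genes at most 0.0362%. In these lists, 4 of 16 endothelial and 3 of 18 fibroblast genes were set apart as lower and 0 as higher (medians -0.99 and -1.05). What part these cells play in the differences below was not tested. For some genes, marker values are given beside theirs.

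Of 12832 genes tested with limma, 4 were called higher in the PDAC primaries (0.0312%) and none lower (0%), at a Benjamini-Hochberg adjusted p under 0.05. At an unadjusted p under 0.05 there were 483 higher and 1210 lower. The p-values measure the spread between these samples, and a difference on the log2(RPKM + 1) scale understates the change of low genes. Since the spread between the PDAC primaries limited this test, genes were also described by whether the groups were set apart: the lowest library of the higher group, after adding 1 RPKM, had to be at least 2 times the highest of the other group. Over all 23799 genes, 623 (2.62%) were set apart as higher and 1684 (7.08%) as lower in PDAC. All of these were among the 12832 tested genes, because a gene set apart must reach 1 RPKM in 2 libraries. Lists made up mostly of tested genes are therefore better read against 623 and 1684 of 12832. When the values were rescaled without haemoglobin and immunoglobulin genes, the split was 465 and 2487. The excess of lower genes did not hold without PDAC primary 5, where 2675 were set apart as higher and 2389 as lower. The median log2 difference of all tested genes was -0.31 (-0.03 in PDAC primary 1 and -0.68 in PDAC primary 5), so lists are read against that shift. Of the 1684 genes lower in PDAC, 742 were above 0 in both PDAC primaries and 293 were listed at 0 in both. Of the 623 higher genes, 332 were within 2 times of each other in the 2 PDAC primaries, 235 were higher in PDAC primary 5 and 56 in PDAC primary 1. Just inside the limit was AW112010 (14.2 and 60.6 against 122 and 131 RPKM) and just outside it Mphosph8 (8.07 and 8.43 against 17.9 and 20.6 RPKM). For lower genes, these were Tiam1 (1.01 and 2.12 against 0.00425 and 0 RPKM) and Mcmbp (17.3 and 18.0 against 8.15 and 0.0125 RPKM).

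**Figure D2:**
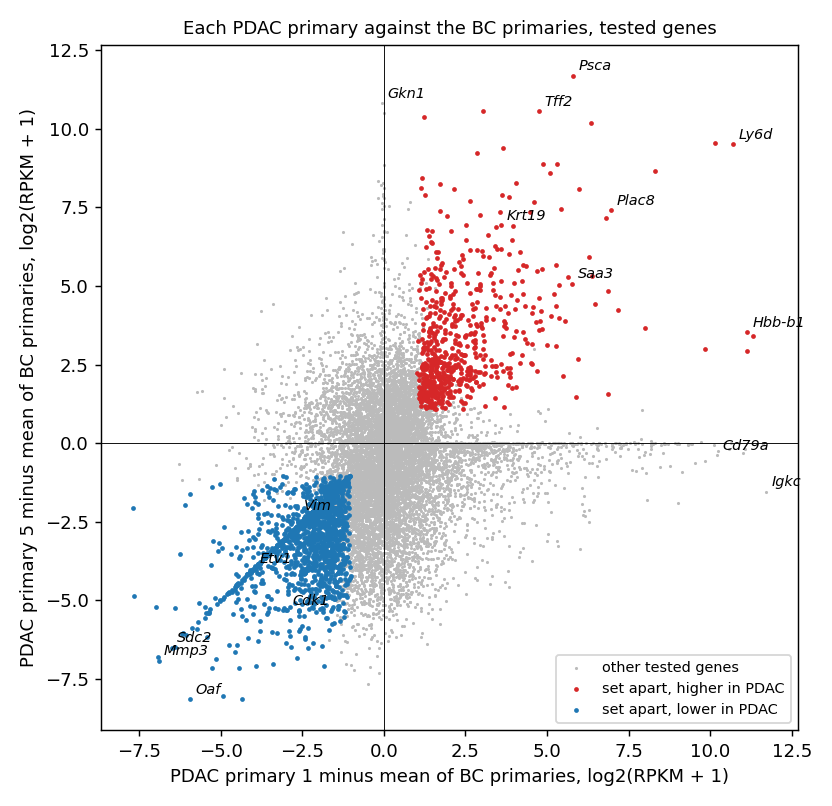
Each tested gene by its difference in PDAC primary 1 (horizontal) and PDAC primary 5 (vertical) from the mean of the BC primaries, on the log2(RPKM + 1) scale. Red and blue points are genes set apart in the 4 primaries, and the grey arm to the right holds genes such as Igkc and Cd79a that were high in PDAC primary 1 and not in PDAC primary 5.

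The 4 genes called higher were high in both PDAC primaries and low in both BC primaries. Ly6d (ENSMUSG00000034634), a small surface protein of lymphoid progenitors and of stratified and luminal epithelium, measured 0.328 and 0.386 RPKM in the BC libraries 1 and 5 against 2255 and 980.5 RPKM for PDAC libraries 1 and 5. Values below follow the same order, BC 1 and 5 against PDAC 1 and 5. Its log2 difference was 10.10 ± 0.81 (SE, n = 2 against 2; limma adjusted p = 0.00204). Chi3l3 (ENSMUSG00000040809), a chitinase-like protein best known from macrophages and neutrophils, was at 0.54 and 0.839 against 1893 and 1243 RPKM (9.83 ± 0.98; limma adjusted p = 0.00846). A close copy of this gene exists, and how the authors' counting divided reads between the copies is not known. Plac8 (ENSMUSG00000029322), a small cysteine-rich protein of myeloid and epithelial cells, was at 0.779 and 0.652 against 214 and 289 RPKM (7.19 ± 0.82; limma adjusted p = 0.0155). Saa3 (ENSMUSG00000040026), an acute-phase apolipoprotein made by inflamed epithelium and macrophages, was at 9.1 and 8.33 against 529 and 326 RPKM (5.42 ± 0.59; limma adjusted p = 0.0117). The groups overlapped for none of the 4. Ly6d and Plac8 are also made by lymphoid and myeloid cells. All 4 were high in PDAC primary 5, a library that listed many common genes at 0. There the leukocyte gene Ptprc was at 0.00549 RPKM, the B cell gene Cd79a at 0.11 RPKM and Csf1r was listed at 0. Other myeloid genes were higher there than in the BC primaries: Cd14 (417 RPKM), Fcer1g, Tyrobp and Ctss. Whether leukocytes contributed to the values of the 4 called genes was not tested. No gene was called when only the 4 primaries entered the fit (smallest adjusted p = 0.0792) or when no filter on low values was applied (0.122).

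Of the genes set furthest apart towards PDAC, several are known from gut epithelium and others are not. Ctse, cathepsin E, an aspartic protease of gastric surface cells, was at 0.192 and 0.325 against 102 and 1441 RPKM (limma adjusted p = 0.108). Psca, prostate stem cell antigen, a surface protein also made by gastric epithelium, was at 0.014 and 0.0715 against 56.6 and 3417 RPKM (adjusted p = 0.148). Lgals4, a galectin of the digestive tract, was at 0.367 and 0.953 against 63.4 and 760.4 RPKM (adjusted p = 0.148) and Lgals2, a second galectin, at 2.26 and 1.95 against 343 and 438 RPKM (adjusted p = 0.26). For Ctse, Psca and Lgals4 the values in PDAC primary 5 were over 10 times those in PDAC primary 1, while the Lgals2 values were close. Car2, a carbonic anhydrase of duct cells, was at 0.48 and 0.486 against 63.3 and 258 RPKM, Sprr1a, a cornified envelope protein, at 0.37 and 0.0284 against 376 and 472 RPKM, and Lrg1, an acute-phase glycoprotein, at 6.5 and 5.89 against 354 and 282 RPKM. Serpinb1a, an inhibitor of neutrophil proteases, was at 1.05 and 0.436 against 133 and 102 RPKM and Gdpd3, a lysophospholipase, at 0.0447 and 0.0429 against 42 and 33.3 RPKM. Pcbd1, an enzyme of pterin recycling, was at 0.0147 and 0.00943 against 63 and 270.4 RPKM. Rps4y2, a ribosomal protein S4 copy whose reads cannot be told from its relatives with certainty, was at 0.316 and 0.429 against 45.8 and 523 RPKM. The rule for naming genes also gave Ccl6, a myeloid chemokine (44.9 and 33.8 against 657 and 475 RPKM), Tmsb4x, an actin-sequestering peptide (511 and 700.0 against 5919 and 3302 RPKM), and Cd14. None of these genes passed in the fit of all 9 libraries, where their adjusted p lay between 0.108 and 0.26.

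The genes set furthest apart towards the BC primaries had varied roles. Hoxa5, a homeobox factor, was at 45.9 and 58.5 against 0.0226 and 0.034 RPKM (limma adjusted p = 0.134), and Gata3 at 42.5 and 52.7 against 0.0908 and 0.0321 RPKM (0.135). Sdc2, the heparan sulphate proteoglycan syndecan 2, was at 92.6 and 87.4 against 0.0128 and 0 RPKM (0.108), and Mmp3, stromelysin 1, at 324 and 43.8 against 0.0118 and 0 RPKM (0.134). The secreted factors included Csf3, the growth factor of neutrophils (188 and 40.8 against 0.0451 and 0 RPKM), Tslp, an epithelial cytokine (67.7 and 58.7 against 0.225 and 0.0564 RPKM), Angptl2 (72.2 and 46.7 against 0.0101 and 0.00508 RPKM) and Wnt7b (136 and 121 against 0.0241 and 2.52 RPKM). Loxl3, a lysyl oxidase that crosslinks matrix (50.8 and 52.2 against 0.192 and 0.243 RPKM), Htra1, a secreted serine protease (386 and 213 against 8.46 and 0.0887 RPKM), and Tpbg, the trophoblast glycoprotein (92.1 and 75.3 against 0.00571 and 1.23 RPKM), showed the same order. So did Trim47, a ubiquitin ligase (96.5 and 58 against 0.0466 and 0.128 RPKM), Oaf (427 and 214 against 3.96 and 0.0802 RPKM), Moxd1, a monooxygenase-like protein (35.5 and 131 against 0.0465 and 0.00998 RPKM), Ank, a pyrophosphate exporter (159.7 and 125 against 2.67 and 0.00885 RPKM), and Dmp1, a mineralised-matrix protein (32.2 and 51.5 against 0 and 0 RPKM). Rcn1, a calcium-binding protein of the secretory pathway, was at 117 and 86.3 against 3.34 and 0.02 RPKM. Ifitm3, which restricts viral entry, differed less in proportion but with closer PDAC values (1454 and 1086 against 152 and 173 RPKM; log2 -2.95 ± 0.49, limma adjusted p = 0.108). Tpm3-rs7, a tropomyosin-related locus whose reads may belong to its parent gene, was at 219.7 and 124 against 2.85 and 1.32 RPKM. None of these passed in the fit of all 9 libraries either (adjusted p from 0.108 to 0.16).

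**Figure D3:**
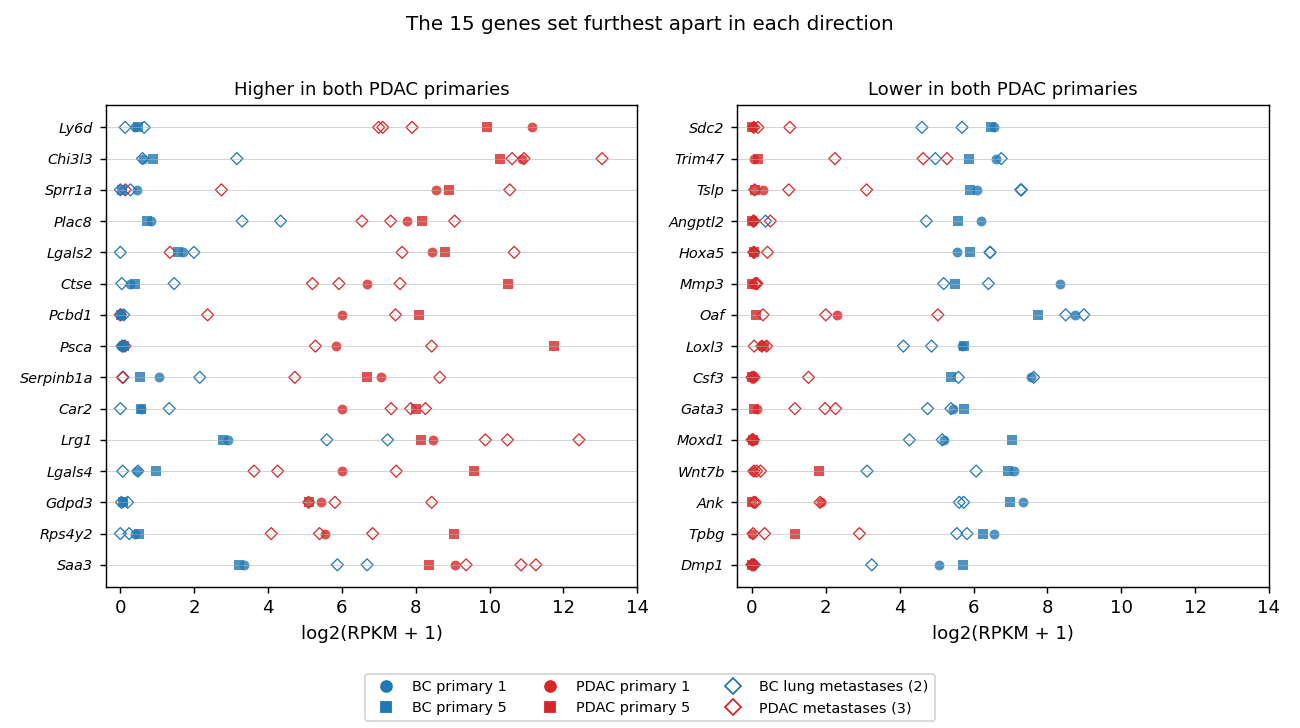
Level in each library, log2(RPKM + 1), of the 15 genes set furthest apart in each direction. Filled symbols are the 4 primaries and open diamonds the metastases, which were not used to choose the genes. In the metastases, 10 of the 15 genes on the left and 12 of the 15 on the right were also set apart. Of all genes set apart in the primaries, 22.8% of the higher and 17.3% of the lower were.

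The promoters of the genes furthest apart were read for short motifs. RefSeq promoters (GRCm38.p6, 250 bases before to 50 after the start) were matched for 29 of the 50 genes furthest apart towards PDAC (32 promoters) and for 27 of the 50 towards BC (36 promoters). Shown are the 250 bases before the start of 2 genes from each direction, 5′ to 3′, with motif matches in capitals. Lgals2 (chr15:78855530-78855779, minus strand) held AGATAA, the core read by GATA factors. Anxa10 (chr8:62123194-62123443, minus strand), an annexin of gastric epithelium, held TATAAA and the AP-1 motif TGANTCA, where N is any base. Mmp3 (chr9:7445572-7445821, plus strand) held TGANTCA and TATAAA, and Spry1 (chr3:37639697-37639946, plus strand), a feedback inhibitor of growth factor signalling, held GGAATG, the TEAD motif, and CCAAT read on the opposite strand.
Lgals2: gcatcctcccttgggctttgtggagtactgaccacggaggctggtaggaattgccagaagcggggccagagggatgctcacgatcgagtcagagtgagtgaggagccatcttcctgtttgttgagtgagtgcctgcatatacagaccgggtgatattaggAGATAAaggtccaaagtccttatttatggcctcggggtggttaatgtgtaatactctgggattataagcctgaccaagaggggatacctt
Anxa10: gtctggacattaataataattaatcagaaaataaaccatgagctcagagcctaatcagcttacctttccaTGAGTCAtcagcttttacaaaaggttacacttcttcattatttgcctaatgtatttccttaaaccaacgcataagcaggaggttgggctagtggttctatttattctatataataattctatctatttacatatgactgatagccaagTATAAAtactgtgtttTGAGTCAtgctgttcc
Mmp3: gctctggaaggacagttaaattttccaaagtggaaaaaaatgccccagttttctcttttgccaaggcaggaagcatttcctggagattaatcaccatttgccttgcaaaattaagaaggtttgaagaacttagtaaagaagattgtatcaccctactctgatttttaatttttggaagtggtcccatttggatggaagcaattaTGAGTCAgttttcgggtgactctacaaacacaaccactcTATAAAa
Spry1: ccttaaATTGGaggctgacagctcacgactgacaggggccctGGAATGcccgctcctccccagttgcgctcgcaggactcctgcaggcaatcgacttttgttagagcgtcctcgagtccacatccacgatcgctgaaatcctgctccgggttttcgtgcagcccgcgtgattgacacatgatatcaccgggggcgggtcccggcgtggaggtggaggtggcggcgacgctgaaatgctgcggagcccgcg

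Both strands were searched, and none of the motifs contains another. GGAATG was present in 0% of the promoters towards PDAC, 25% of those towards BC and 14.7% of all 32851 promoters, and TGANTCA in 9.38%, 13.9% and 7.81%. CAGGTG, the E-box of ZEB and SNAI factors, was found in 34.4%, 22.2% and 20.2%, AGATAA in 18.8%, 8.33% and 11.2%, CCAAT in 43.8%, 52.8% and 37.4%, and TATAAA in 15.6%, 2.78% and 13.6%. With 32 and 36 promoters, these shares are counts of 0 to 19, and a match is only a match of letters. Some genes entered with several promoters, so the promoters are not independent. For Apol9a, matched to the RefSeq gene Apol9b, both promoters overlap and share their GGAATG matches.

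Genes of pancreatic ducts were set apart towards PDAC and never towards BC. Of 19 measured, 7 were set apart as higher and 0 as lower. The table as a whole had 2.62% and 7.08%, and the 12832 tested genes had 623 and 1684. The median log2 difference of the 12 tested was 2.58 (1.45 in PDAC primary 1 and 4.44 in PDAC primary 5). Krt19, the keratin of ducts, was at 19.3 and 14.6 against 214 and 2176 RPKM, Krt7 at 63.6 and 40.4 against 144 and 730.2 RPKM, and the membrane mucin Muc1 at 0.971 and 1.79 against 9.3 and 635 RPKM. Tspan8, a tetraspanin of gastrointestinal tumours, was at 0.627 and 0.456 against 36.2 and 312 RPKM and Ambp, the bikunin precursor, at 0.00846 and 0.0866 against 11.5 and 170.1 RPKM. Pdx1, the pancreatic and duodenal homeobox factor, was low but set apart (0.0276 and 0.00884 against 1.69 and 11.4 RPKM). All 7 were higher in PDAC primary 5 than in PDAC primary 1, and none passed limma. Spp1, osteopontin, a duct marker in the normal pancreas, did not separate the models (6919 and 3285 against 3655 and 3537 RPKM). Neither did Sox9, the factor that maintains ductal progenitors (188 and 43.8 against 2.44 and 77.6 RPKM), nor Hes1, a Notch effector (91.5 and 30.2 against 9.85 and 89.2 RPKM).

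Genes of the stomach lining were higher in PDAC, and mostly in PDAC primary 5. Of 30 measured, 8 were set apart as higher and 0 as lower, and the median of the 22 tested was 3.97 (0.33 in PDAC primary 1 and 5.50 in PDAC primary 5). The 12832 tested genes as a whole had 623 and 1684. Summed over the list, the BC primaries held only 2.54 and 5.42 RPKM, so members could hardly be set apart as lower. Members met the test filter mainly through PDAC libraries, where they were high, which favours a positive median. Tff2, a trefoil peptide of mucous neck cells, was at 0.0817 and 0 against 27.2 and 1560.5 RPKM, and Gkn3, a gastrokine, at 0.0283 and 0.0271 against 7.4 and 1539 RPKM. Anxa10 was at 0 and 0.00427 against 18.3 and 49.7 RPKM, Vsig2 at 0.0102 and 0.0913 against 11.8 and 250.5 RPKM, the adhesion molecule Ceacam1 at 0.115 and 0.098 against 4.95 and 44 RPKM and Sult1c2, a sulphotransferase, at 0 and 0 against 2.62 and 38.2 RPKM. Several members were high in PDAC primary 5 alone: Gkn1 (0.00971 and 0.0684 against 0 and 1859 RPKM), Gkn2 (0 and 0.00982 against 0 and 1449 RPKM), Tff3 (0.0242 and 0 against 0 and 309 RPKM) and Agr2, a disulphide isomerase of mucous cells (0 and 0.00591 against 0 and 274 RPKM). Claudin 18, the gastric tight junction protein (Cldn18, 0 and 0 against 0.667 and 173 RPKM), and Muc5ac, the surface mucin (0 and 0 against 0.0045 and 15.1 RPKM), had the same order. Summed, the list took 2.09% of PDAC primary 5, 0.0438% of PDAC primary 1 and at most 0.00188% of the BC primaries. Of 10 measured genes in a list of intestine and lymph node, 2 were also set apart as higher. These were the intestinal genes villin (Vil1, 0.00672 and 0 against 2.33 and 46 RPKM) and the cadherin Cdh17 (0.317 and 0.309 against 9.03 and 42.7 RPKM).

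Acinar and endocrine genes were mostly low. Of 23 measured acinar genes, 2 were set apart as higher: the trypsinogen Prss2 (0.322 and 0.328 against 13.6 and 95 RPKM) and the elastase Cela2a (0 and 0.0177 against 1.73 and 41 RPKM). Sycn and Reg1, secretory proteins of acini, reached 40.5 and 455 RPKM in PDAC primary 5 and were listed at 0 in PDAC primary 1. Among 13 endocrine genes none was set apart. Insulin transcripts were confined to PDAC primary 1 among the primaries, with Ins2 at 217, Ins1 at 30.7 and Iapp at 17.7 RPKM and 0 in the other 3.

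**Figure D4:**
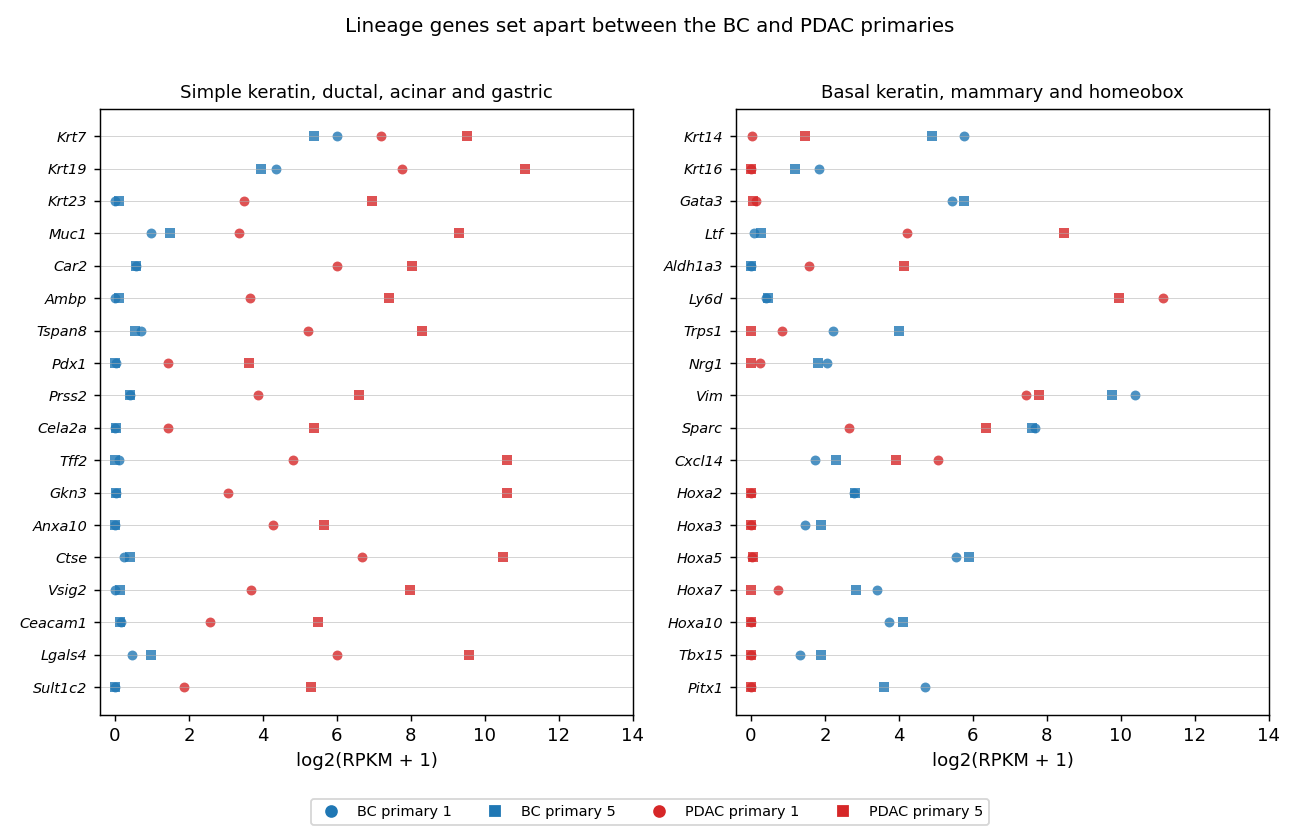
Lineage genes set apart between the models, log2(RPKM + 1) per primary library. Shown on the left are genes of simple keratin, ductal, acinar and gastric lists, where both red symbols lie above both blue ones; on the right are basal keratin, mammary and homeobox genes, where Ly6d, Ltf, Aldh1a3 and Cxcl14 were higher in PDAC and the others shown lower.

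General epithelial identity did not separate the models. Of 20 pan-epithelial genes, 2 were set apart as higher, Krt19 and the adaptor subunit Ap1m2 (0.151 and 1.37 against 14.1 and 163 RPKM), and 0 as lower. Epcam, the epithelial adhesion molecule, was at 71.1 and 156 against 52.9 and 1154 RPKM, E-cadherin (Cdh1) at 2.75 and 18.2 against 0.409 and 109 RPKM and claudin 4 at 95.1 and 89.3 against 5.92 and 1722 RPKM. The BC values of these 3 genes lay between the PDAC values. Keratins 8 and 18 were abundant in all 4 libraries (1931 and 1002 against 415 and 1849 RPKM and 3386 and 1621 against 1387 and 8157 RPKM). Krt23 was set apart as higher in PDAC (0.00762 and 0.0878 against 10.3 and 123 RPKM), while the basal keratin Krt14 (53.5 and 28.8 against 0.0242 and 1.76 RPKM) and the stratified keratin Krt16 (2.6 and 1.3 against 0 and 0 RPKM) were lower. Of 21 junction genes, 2 were set apart in each direction: Cldn6 (0.0871 and 0.0608 against 5.66 and 221 RPKM) and Tjp3 (0.153 and 0.761 against 4.96 and 45 RPKM) as higher, Cldn12 (1.95 and 4.29 against 0 and 0 RPKM) and Pkp2 (1.98 and 4.11 against 0 and 0.00596 RPKM) as lower. These counts stand beside 623 higher and 1684 lower among all 12832 tested genes.

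Mammary lists were mixed, and the luminal list did not mark the BC primaries as a whole. The table as a whole had 2.62% set apart as higher and 7.08% as lower, and the 12832 tested genes had 623 and 1684. Of 21 luminal genes, 2 were set apart as lower in PDAC, Gata3 and Trps1, a GATA-type repressor (3.7 and 15 against 0.804 and 0 RPKM), and 3 as higher, Ly6d, lactoferrin, which is also a neutrophil granule protein (Ltf, 0.0652 and 0.203 against 17.5 and 352 RPKM), and the retinal dehydrogenase Aldh1a3 (0 and 0.00661 against 1.95 and 16.5 RPKM). Other defining luminal genes, such as Foxa1 at 0.662 and 0.457 RPKM, were low in the BC primaries. Of 20 basal genes, 4 were lower in PDAC: Krt14, the growth factor Nrg1 (3.18 and 2.49 against 0.191 and 0 RPKM), vimentin (Vim, 1329.8 and 866 against 173 and 219 RPKM) and Sparc (205 and 194 against 5.24 and 80.3 RPKM). The chemokine Cxcl14 was higher (2.34 and 3.93 against 32.3 and 14 RPKM).

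Many homeobox patterning genes were lower in PDAC. Of 34 measured, 9 were set apart as lower in PDAC and 0 as higher, and the median of the 12 tested was -1.65 (-1.65 in PDAC primary 1 and -1.65 in PDAC primary 5). The table as a whole had 7.08% lower, and the 12832 tested genes had 1684. Many members were at or near 0 in both PDAC primaries, where the difference is set by the BC values. The equal medians are therefore no measure of agreement between the PDAC primaries. Besides Hoxa5 these included Hoxa2 (5.88 and 5.97 against 0 and 0 RPKM), Hoxa3, Hoxa7 (9.54 and 6.2 against 0.672 and 0 RPKM), Hoxa10 (12.3 and 16.4 against 0.00554 and 0 RPKM), the limb and pituitary factor Pitx1 (25.1 and 11 against 0.00801 and 0 RPKM) and Tbx15 (1.51 and 2.73 against 0.00567 and 0 RPKM). In the PDAC primaries none of the 9 exceeded 0.672 RPKM. In the metastases, 4 of the 9 were set apart the same way, against 17.3% of all genes set apart as lower in the primaries. Quantile scaling gave 6 set apart as lower in place of 9. Prrx2 (17.1 and 1.76 against 3.93 and 67.4 RPKM) and En1 (0.0152 and 0.0272 against 0.168 and 42.3 RPKM) had another order, with their highest values in PDAC primary 5. Through these, the summed level of the list was 109.8 RPKM in PDAC primary 5, close to the BC primaries (124 and 116 RPKM), and 5.52 RPKM in PDAC primary 1.

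Part of the mesenchymal list was lower in both PDAC primaries. Of 25 measured, 7 were set apart as lower and 0 as higher (median of 19 tested -1.30; -1.50 in PDAC primary 1 and -1.46 in PDAC primary 5). The 12832 tested genes had 1684 and 623. Vimentin, the intermediate filament of mesenchymal cells, was among the 7. The transcription factor Snai1 was at 52.5 and 19.9 against 0.446 and 0 RPKM and Twist1 at 47.4 and 29.95 against 7.69 and 0.0198 RPKM. Axl, a receptor tyrosine kinase, was at 119 and 159.9 against 8.24 and 0.019 RPKM, S100a4 at 1296 and 457 against 158 and 75.8 RPKM, galectin 1 (Lgals1) at 8025 and 4475 against 830.4 and 1008 RPKM and the fibronectin receptor subunit Itga5 at 17.3 and 14 against 2.18 and 0 RPKM. Fibronectin itself (Fn1) did not separate the models (75 and 198 against 20.4 and 115 RPKM), nor did Mmp14 (211 and 215 against 8.93 and 172 RPKM). The fibroblast list was lower as well: 3 of 18 genes were set apart as lower, Pdgfra (1.57 and 4.15 against 0 and 0 RPKM), Lum and Col3a1, and 10 of 12 tested differences were negative (median -1.05). Its part in the mesenchymal and matrix values was not tested.

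Matrix genes and proteases followed. Of 28 collagen and secreted matrix genes, 8 were set apart as lower in PDAC and 0 as higher (median of 20 tested -1.30). Col5a1 was at 7.38 and 13.8 against 0.01 and 0.0301 RPKM, Col6a1 at 20.8 and 84.1 against 0.759 and 0 RPKM, Col6a2 at 1.75 and 13.5 against 0.00255 and 0 RPKM and Col3a1 at 3.37 and 19 against 0 and 0 RPKM, and the matricellular protein Cyr61 at 478 and 205 against 20.8 and 59.9 RPKM. Fbln2 (95.7 and 66.3 against 22.2 and 24.2 RPKM), Sparc and Lum completed the 8. Of 25 laminin, integrin and basement membrane genes, 4 were lower: Lamb1 (9.07 and 30.4 against 3.42 and 0.00644 RPKM), Itga3 (94 and 121 against 7.96 and 22.1 RPKM), Itgb1 (194 and 161 against 16.2 and 63.4 RPKM) and Itgb5 (71.7 and 54.9 against 7.27 and 8.64 RPKM). Of all 12832 tested genes, 1684 were lower.

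Among 26 matrix proteases and their regulators, 8 were set apart as lower in PDAC and 1 as higher. Over the 12832 tested genes, these counts were 1684 and 623. The 8 were Mmp3, Mmp9 (41.9 and 69.1 against 17.4 and 0.00902 RPKM), Mmp10 (12.9 and 2.49 against 0.0124 and 0 RPKM), Mmp11 (22.6 and 18.2 against 5.69 and 0 RPKM), Mmp13 (4.37 and 2.79 against 0 and 0 RPKM), Adamts1 (3.15 and 4.33 against 0 and 0.00602 RPKM), the inhibitor Timp2 (128 and 169 against 20.03 and 25.2 RPKM) and urokinase, the plasminogen activator (Plau, 19.6 and 19.5 against 0.0635 and 0.0136 RPKM). The exception was Mmp7, matrilysin, the protease that glandular epithelium itself makes (0 and 0.0214 against 2.32 and 302 RPKM). The urokinase receptor Plaur was abundant in all 4 (328 and 105 against 293 and 1096 RPKM).

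Cell cycle genes were the list with the largest number set apart. Of 40 measured, 25 were set apart as lower in PDAC and 0 as higher, and all 40 differences were negative (median -3.02; -2.22 in PDAC primary 1 and -3.59 in PDAC primary 5). Among all 12832 tested genes, 1684 were lower and 623 higher, with a median of -0.31. Cdc20, the activator of the anaphase-promoting complex, was at 122 and 69.9 against 12 and 0.0342 RPKM, cyclin-dependent kinase 1 at 55.7 and 26.8 against 4.1 and 0 RPKM, cyclin A2 at 30.9 and 21 against 1.73 and 0.0182 RPKM and the helicase subunit Mcm5 at 92.7 and 41.6 against 7.48 and 0.00913 RPKM. Birc5 was at 51.5 and 25.1 against 7.04 and 0 RPKM, Top2a at 5.48 and 14.9 against 0.283 and 0.00352 RPKM, E2f1 at 33.7 and 19.1 against 3.95 and 0.0405 RPKM and cyclin D1 at 250.4 and 158 against 10.3 and 28.1 RPKM. In PDAC primary 5, 19 of the 40 genes were listed at 0, as were 2615 of the 9586 genes at 1 RPKM or more in both BC primaries. In PDAC primary 1, 2 of the 40 were listed at 0, and Pcna was at 22.4 and Rrm2 at 22.4 RPKM there. Rescaled values gave 29 to 33 genes set apart as lower and 0 as higher. In the metastases only 1 of the 25 was set apart the same way, against 17.3% of all genes set apart as lower in the primaries. None of the 40 passed limma, and 22 had an unadjusted p under 0.05.

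Several inhibitors of the cell cycle had the opposite order. Cdkn1a (p21), the inhibitor induced by p53, was at 31.9 and 10.9 against 122 and 218 RPKM. Cdkn2a, the locus of p16 and p19Arf, was at 0.0102 and 0.00652 against 7.86 and 19 RPKM, Cdkn2b (p15) at 0.137 and 0.203 against 15.8 and 262 RPKM and Cdkn2d (p19) at 3.71 and 2.1 against 15 and 9.65 RPKM. All 4 were higher in both PDAC primaries. Cdkn2c (p18) was lower in PDAC (90.2 and 47.2 against 5.92 and 0.0119 RPKM). Across the 28 inhibitors and p53 targets, 5 were set apart as higher and 3 as lower, beside 623 and 1684 of all 12832 tested genes. Btg2, an antiproliferative p53 target, was higher (25.8 and 26.4 against 88.2 and 162 RPKM), while Gadd45a (120.0 and 151 against 50.2 and 17.9 RPKM) and Ei24 (67.8 and 68.3 against 7.14 and 32.3 RPKM) were lower. Mdm2 (9.67 and 11.2 against 12 and 28.2 RPKM) and Bax (165 and 112 against 258 and 248 RPKM) were not set apart.

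The labelled alleles were read directly. Trp53, of which the PDAC models carry 1 floxed copy, was at 16 and 15.9 against 17.5 and 1.4 RPKM. Sirt6, which encodes a deacetylase, had values of 6.23 and 5.81 against 3.49 and 0 RPKM: the library labelled SIRT6F/F listed more than the PDAC library without that label. Gene totals do not show whether single exons were lost, and PDAC primary 5 listed many common genes at 0, so these values check neither label. Among sex-linked genes, Xist was at 0.00823 and 0.251 against 0 and 5.61 RPKM, Eif2s3y at 0 and 0.00549 against 11.6 and 0 RPKM and Ddx3y at 0 and 0 against 4.24 and 0 RPKM. Y-linked transcripts were thus highest in PDAC primary 1 and Xist in PDAC primary 5.

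Many transcriptional targets of MAPK signalling were lower in PDAC. Of 20 measured, 9 were set apart as lower and 0 as higher (median of 19 tested -1.98; -2.55 in PDAC primary 1 and -1.72 in PDAC primary 5). Among all 12832 tested genes, 1684 were set apart as lower and 623 as higher, and the median was -0.31. The phosphatase Dusp6, a negative feedback gene of the kinase ERK, was at 197 and 183 against 7.56 and 9.25 RPKM. Spry1 was at 74.4 and 96.8 against 2.22 and 0.011 RPKM, and the ETS factors Etv1 and Etv4 were at 13 and 16.9 against 0.00361 and 0 RPKM and 45.3 and 36.6 against 0.116 and 3.86 RPKM. Fosl1 was at 66.2 and 20.7 against 1.39 and 2.9 RPKM and Egr1 at 157 and 103 against 31.4 and 17.3 RPKM. Spred1, Spred2 and cyclin D1 completed the 9. Not every target had this order: Dusp4 (17.1 and 13.2 against 2.01 and 41.6 RPKM) and Spry2 (1.16 and 6.16 against 0.0408 and 22.1 RPKM) were highest in PDAC primary 5, and Ier3 was high throughout (1639 and 265 against 503 and 662 RPKM). General immediate early genes were less uniform, with Fos at 1155 and 753 against 493 and 713 RPKM and Jun at 418 and 671 against 375 and 295 RPKM, and of 24 measured, 5 were set apart as lower (Fosl1, Egr1, Egr2, Nr4a2 and Cyr61) and 1, Btg2, as higher.

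Of 20 target genes of the coactivator YAP, 8 were set apart as lower in PDAC and 1 as higher (median -1.48). Among all 12832 tested genes, 1684 were lower and 623 higher. Ankrd1 was at 99.1 and 50.9 against 16.4 and 20.6 RPKM, Amotl2 at 4.35 and 8.93 against 0.0169 and 0 RPKM, Nt5e, the ectoenzyme CD73, at 76.9 and 89.4 against 0.22 and 20.6 RPKM and Yap1 itself at 2.8 and 3.92 against 0.448 and 0.39 RPKM. The exception was tissue factor (F3, 2.57 and 2.55 against 17.7 and 226 RPKM). Ctgf was highest in PDAC primary 5 and lowest in PDAC primary 1 (26.2 and 8.52 against 4.03 and 167 RPKM).

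Genes of the WNT, Notch, hedgehog and TGF-beta pathways were set apart mostly as lower in PDAC. Of 42 measured, 10 were set apart as lower in PDAC and 1 as higher. The table as a whole had 7.08% and 2.62%, and the 12832 tested genes had 1684 and 623. Lower were the ligands Wnt7b, Wnt9a, Bmp7 (20.1 and 6.21 against 1.25 and 0 RPKM), Tgfb3 (19 and 41.6 against 1.51 and 0 RPKM) and Dll1, the inhibitors Sfrp1 (17.9 and 16.5 against 0.00486 and 0.0073 RPKM), Notum (13.9 and 5.85 against 0 and 0 RPKM) and Hhip, which binds hedgehog (13.3 and 20.3 against 0.00434 and 0 RPKM), and the signal transducers Tgfbr2 and Smad4 (31 and 34.3 against 5.27 and 2.23 RPKM). Of these 10, 6 were set apart the same way in the metastases, against 17.3% of all genes set apart as lower in the primaries. Id2, a helix-loop-helix inhibitor, was higher (46.1 and 38.3 against 148 and 185 RPKM). Shh was at 48.4 RPKM in PDAC primary 5 and listed at 0 in the other 3 primaries, and Wnt4 at 0.00569 and 0.00728 against 0.755 and 202 RPKM.

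Metabolic lists differed in part. Of 25 genes of cholesterol and fatty acid synthesis, 8 were set apart as lower in PDAC and 0 as higher (median of 23 tested -1.57). Squalene epoxidase (Sqle) was at 29 and 23.5 against 3.47 and 0.0806 RPKM, lanosterol demethylase (Cyp51) at 15.7 and 17.6 against 1.49 and 0 RPKM and fatty acid synthase (Fasn) at 7.58 and 16.5 against 0.399 and 1.02 RPKM. Of 32 hypoxia and glycolysis genes, 7 were lower, among them the glucose transporter Slc2a1 (72.9 and 54.5 against 18.2 and 18 RPKM), hexokinase 1 (Hk1, 23.3 and 22.6 against 4.45 and 0.284 RPKM), Ndrg1 (55.6 and 39.2 against 4.67 and 0.213 RPKM) and carbonic anhydrase 12 (Car12, 6.07 and 8.58 against 0.0374 and 0 RPKM). Across all 12832 tested genes, 1684 were lower. The glycolytic enzymes Aldoa and Gapdh overlapped between the models: Aldoa was at 745 and 510.1 against 553 and 654 RPKM and Gapdh at 716 and 282 against 579.6 and 1000.0 RPKM. Oxidative phosphorylation subunits (median 0.51, 2 of 32 set apart as higher) and ribosomal proteins (0.48, 1 of 36) had small positive medians, which turned to -0.08 and -0.09 with quantile scaling.

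Glutathione and redox genes were set apart between the models in both directions. Of 29 measured, 8 were set apart as higher and 4 as lower in PDAC (median 0.44, and -0.02 without haemoglobin and immunoglobulin genes). Of all 12832 tested genes, 623 were set apart as higher and 1684 as lower. The gastrointestinal glutathione peroxidase Gpx2 was at 0 and 0 against 11.5 and 665 RPKM, the transferases Gsta4 and Gstm1 were at 12.4 and 25.6 against 107 and 2319.9 RPKM and 10.7 and 5.25 against 52.7 and 114 RPKM, and the microsomal transferase Mgst1 was at 10.3 and 17.5 against 52.3 and 164 RPKM. Gpx3, Gsta1, Gstm5 and transaldolase (Taldo1) were the other 4. Lower were sulfiredoxin (Srxn1, 30.3 and 14.8 against 0 and 0 RPKM), thioredoxin reductase (Txnrd1, 44.6 and 44.8 against 7.35 and 9.95 RPKM), G6pdx (40.6 and 27.3 against 4.26 and 0.0207 RPKM) and Gstm2 (19.1 and 15 against 1.23 and 0 RPKM). Reads of the transferase families can be shared between close copies.

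Of 23 genes of the unfolded protein response and secretion, 2 were set apart as higher, Herpud1 (39 and 27.3 against 141 and 234 RPKM) and Sdf2l1 (29.7 and 40.4 against 82.2 and 325 RPKM). The chaperone Hspa5 (666 and 536 against 195 and 181 RPKM) and asparagine synthetase (Asns, 55.6 and 30.1 against 11.9 and 2.07 RPKM) were lower. Among 27 MYC and nucleolar genes, 3 were lower, fibrillarin (Fbl, 88.3 and 76.3 against 19.4 and 2.72 RPKM), Polr1b and ornithine decarboxylase (Odc1, 128 and 75.6 against 21.2 and 20.6 RPKM). That was close to the share of all tested genes (1684 of 12832). Myc itself did not differ beyond its spread (152 and 95.5 against 118 and 136 RPKM).

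Interferon-induced genes were lower in PDAC for 8 of 34 and higher for 1, with medians of -0.69 in PDAC primary 1 and -2.44 in PDAC primary 5. Besides Ifitm3, these included the GTPases Gbp2 (43.3 and 35.8 against 5.61 and 0 RPKM) and Iigp1 (7.74 and 9.69 against 0 and 0 RPKM), Oasl2 (10.6 and 16.4 against 0.0219 and 0 RPKM) and the chemokine Cxcl10 (7.12 and 11.7 against 0.489 and 0 RPKM). The exception was Oasl1 (3.49 and 4.09 against 9.93 and 56.4 RPKM). In PDAC primary 5, 19 of the 34 were listed at 0, and in PDAC primary 1, 4 were. Over all 12832 tested genes, 1684 were set apart as lower and 623 as higher. MHC class I genes differed between the PDAC primaries: H2-K1 was at 967 and 789 against 1211 and 154 RPKM and H2-D1 at 1626 and 1385 against 1460.4 and 593 RPKM, with list medians of -0.08 in PDAC primary 1 and -3.30 in PDAC primary 5. Beta-2 microglobulin (B2m) was lower in both, by less than the limit (2415 and 2647 against 1359 and 938 RPKM). H2-Q4 (78.1 and 69.4 against 2.59 and 9.45 RPKM), the peptide loader Tapbp (245 and 253 against 75.5 and 84.6 RPKM) and the trimming peptidase Erap1 (8.4 and 18.2 against 0.668 and 0.635 RPKM) were set apart as lower. Leukocyte markers were high in PDAC primary 1 as well (pan-leukocyte genes 0.651%), and their part in these values was not tested.

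Cytokines and inflammatory genes differed one by one. Of 32 measured, 3 were set apart as higher in PDAC (Saa3, Cxcl14 and Il1rn, the interleukin 1 receptor antagonist, 1.52 and 1.54 against 33 and 31.2 RPKM) and 4 as lower (Csf3, Csf1, Tnfaip3 and Ptgs2). The share of lower genes was close to that of all tested genes (1684 of 12832, with 623 higher). Csf1, the growth factor of macrophages, was at 46.5 and 50.7 against 1.65 and 0.00607 RPKM and the prostaglandin synthase Ptgs2 at 20.04 and 19.2 against 2.86 and 0.00771 RPKM. Cxcl2 and Il1b were high in PDAC primary 1 (41.1 and 7.94 against 597 and 30.9 RPKM and 9.92 and 11 against 204 and 0.0502 RPKM), where neutrophil genes such as S100a8 were at 609 RPKM against 9.28 in PDAC primary 5. Cxcl1 did not separate the models (229 and 90.3 against 45.6 and 253 RPKM).

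The list of Ly6, S100 and annexin proteins also included Plac8, which belongs to none of these families. With it, the list held 2 of the 4 genes that limma called. Of 25 measured, 7 were set apart as higher and 2 as lower, and the called genes were Ly6d and Plac8. The 12832 tested genes had 623 higher and 1684 lower. Ly6a (Sca-1) was at 73 and 37.7 against 354 and 512 RPKM, Ly6e at 148 and 86.2 against 1629 and 537 RPKM and S100a14 at 3.04 and 0.857 against 7.43 and 97.9 RPKM, and Psca and Anxa10 are given above. S100a4 and the urokinase-receptor relative Lypd3 (18.2 and 8.38 against 0 and 0 RPKM) were lower. The abundant S100a6 (1953 and 1612 against 1370.2 and 3206 RPKM) and Anxa2 (673 and 370.1 against 579 and 1227 RPKM) were not set apart. Among oncofetal and imprinted genes, H19 was lower in PDAC (6.5 and 85.9 against 0.0179 and 0 RPKM), as was Igf2r (2.02 and 10.3 against 0.331 and 0.044 RPKM).

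**Figure D5:**
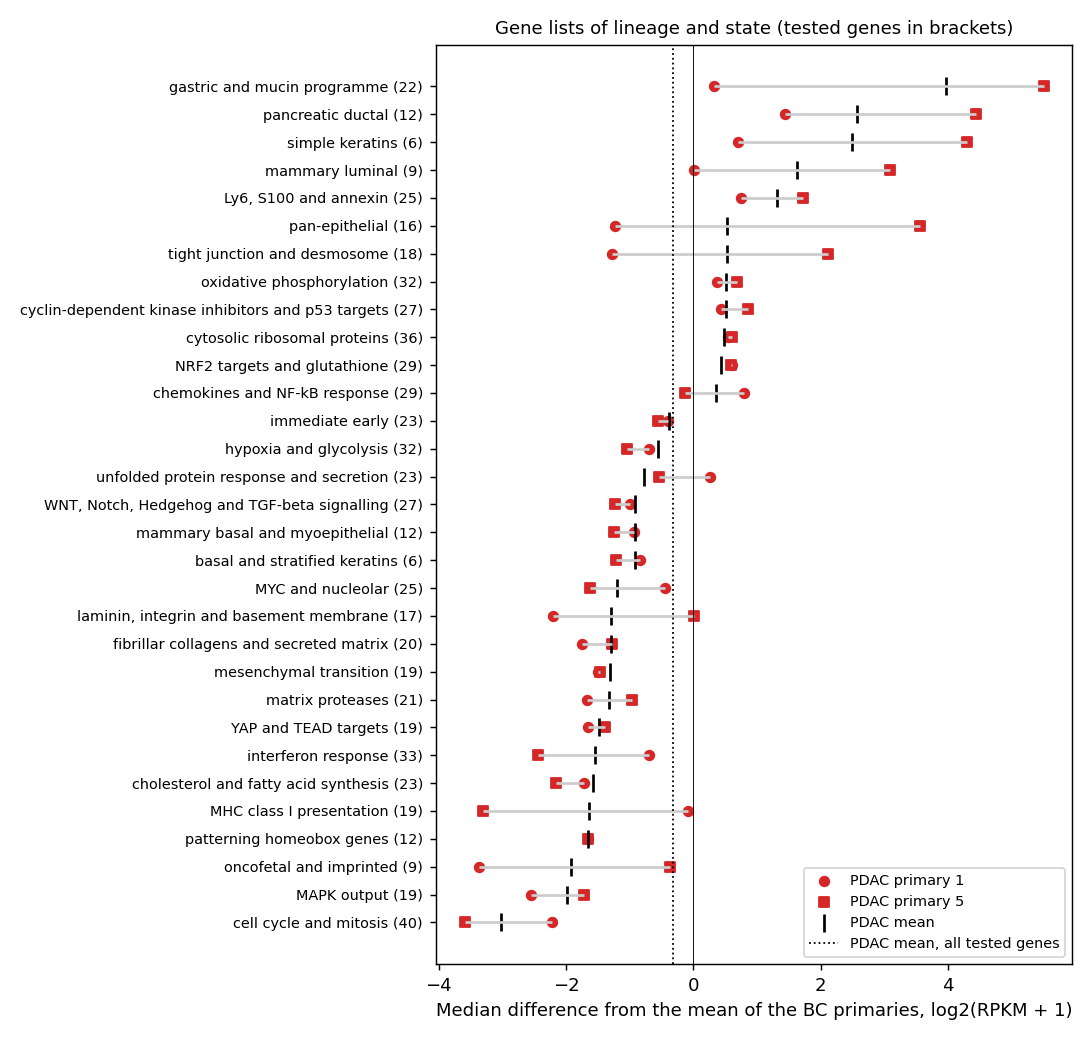
Median difference of each gene list from the mean of the BC primaries, log2(RPKM + 1), in PDAC primary 1 (circles), PDAC primary 5 (squares) and their mean (ticks), with the number of tested genes in brackets and a dotted line at the median of all tested genes, -0.31. Cell cycle and MAPK lists lie left of the line in both PDAC primaries, ductal and gastric lists right of it, and pan-epithelial and MHC class I lists differ between the PDAC primaries.

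The metastases offered a look at the same genes in libraries that did not choose them, but they may not be independent of the primaries. PDAC primary 1, a liver and the lung metastasis shared a number, a genotype and a time of 25.67 weeks in the labels, as did PDAC primary 5 and the other liver metastasis at 28.95 weeks, so they may come from the same animals. Of all genes, 2.93% were set apart as higher (697) and 2.54% as lower (605) in the 3 PDAC metastases against the 2 BC lung metastases. Of the 623 genes set apart as higher in the PDAC primaries, 142 (22.8%) were set apart the same way in the metastases and 3 the other way. Of the 1684 set apart as lower, 291 (17.3%) and 3 were. Ly6d was at 0.565 and 0.0929 RPKM in the BC metastases and 238, 127 and 137 RPKM in the PDAC liver metastases 1 and 5 and the lung metastasis. Ctse had the same order, at 1.74 and 0.027 against 189, 35.8 and 59.5 RPKM. Sprr1a did not, at 0.21 and 0 against 1493, 5.66 and 0.0971 RPKM. Hoxa5 was at 86.7 and 85.9 against 0.0308, 0.337 and 0.0417 RPKM and Mmp3 at 35.6 and 83.6 against 0.0965, 0.0612 and 0.0871 RPKM. Trim47, by contrast, was at 107 and 30.2 against 37.8, 3.74 and 23.8 RPKM, so its groups overlapped there. Haemoglobin genes made up 20.05 to 38.9% of the PDAC metastases and at most 0.107% of the BC metastases.

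Housekeeping genes set the scale of these differences. Of 16, 2 were set apart as lower in PDAC, Ywhaz (158 and 135 against 66.1 and 22.9 RPKM) and Gusb (27.8 and 29.7 against 12.7 and 0 RPKM), and 0 as higher (median -0.41). The share of lower genes was close to that of all tested genes (1684 of 12832). Actb was at 1951 and 1171 against 918 and 1409 RPKM and Ppia at 611 and 366 against 610.1 and 496 RPKM. Sdha, a respiratory enzyme subunit, was at 79.7 and 59.9 against 56.3 and 0.0247 RPKM, a low value in PDAC primary 5 alone.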

How the data were processed

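RNA of sorted cells was amplified with SMART-seq v4 and made into Nextera XT libraries, per the labels' protocols, which keeps no strand, so overlapping and antisense genes cannot be told apart. The authors deposited 1 table of 23799 genes in 9 libraries, whose values, scaled by them to library size and gene length, were read as RPKM although the table carries the name of another unit. Low values of 64.5 to 74.4% of the genes checked in a library were whole multiples of 1 read (within 0.02 of a read) once multiplied by gene length, against 5.08 to 5.95% without it. The submitters' processing notes name mm9; aligner, counter and annotation are not given in the sources used here. Of the per-sample columns, 0 were left unused.

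Values were tested as log2(RPKM + 1) with limma 3.58.1 (R 4.3.3, statmod 1.5.0; trended, robust moderation), 1 mean per group over all 9 libraries, for 12832 genes at 1 RPKM or more in at least 2 libraries. Adjusted p-values are Benjamini-Hochberg over these genes, with a threshold of 0.05. The metastases add to the estimate of spread, which leaves 4 residual degrees of freedom. The fit treats them as independent of the primaries, although shared numbers, genotypes and times in the labels leave shared animals possible. The script was tested on simulated data. A gene was set apart when the groups of primaries were at least 1 log2 unit apart, without a test. Reads on genes, about 40300000 to 128000000 per primary, were estimated from the values and gene lengths.

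Genes were named by rule: up to 10 per direction by fitted difference, then smallest p, 15 per direction by gap, and from each list the 4 most abundant and any member called or set apart; labelled alleles, sex-linked and housekeeping genes were added. Some other members are named as examples chosen after their values were seen. The comparison and the 51 lists (1001 of 1045 genes measured) were chosen with earlier results of these data known. A further allele in the PDAC genotype labels and some list members are not reported here. Promoter sequences are from RefSeq (GRCm38.p6) and were matched by symbol. The alternatives were other pseudocounts, filters, scalings, weights, fits and sets of libraries.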

Additional observations from a re-analysis of the deposited data

How the results depend on the processing

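The fit of all 9 libraries called 4 genes higher and 0 lower in PDAC. With a pseudocount of 0.1 there were 3 and 0, and with 5 there were 4 and 0. Without a filter on low values 0 were called in either direction (limma, 505 higher and 1934 lower at an unadjusted p under 0.05), and with only the 4 primaries 0 (489 and 1381). A stricter filter gave 4 and 1, and keeping only genes above 0 in all 4 primaries, chosen after seeing the data, gave 4 and 1. Quantile scaling gave 6 and 9, leaving out haemoglobin and immunoglobulin 4 and 2, median scaling 4 and 2, no trend or robust moderation 1 and 0, and array weights 35 and 30. Leaving out 1 library gave 2 to 270 higher and 0 to 522 lower: 270 and 522 without PDAC primary 1, 165 and 33 without PDAC primary 5, and 2 and 0 without either BC primary. The lone PDAC library is then assumed to vary like the other groups. The shared numbers 1 and 5 do not pair these models (correlation of deviations 0.0351), and the fit with the replicate block, with 1 residual degree of freedom, called 79 and 65.

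Of genes set apart, 623 and 1684 in the main comparison, a pseudocount of 0.1 gave 845 and 3154, 5 gave 375 and 682, the stricter filter 494 and 1011, quantile scaling 664 and 1463, median scaling 502 and 1904, and genes above 0 in all 4 gave 583 and 742. Without 1 library there were 778 to 2675 higher and 2092 to 4964 lower, since fewer libraries have to be separated. The balance turned to more higher than lower without PDAC primary 5 (2675 and 2389). Among called genes, it turned to more lower with quantile scaling and without PDAC primary 1. None of the 37 genes recomputed changed the sign of its difference. These were chosen by p or by gap in the same libraries, so this outcome could hardly differ. Genes named from the lists alone were not recomputed. Many list medians changed sign: those of oxidative phosphorylation and ribosomal proteins with quantile scaling, glutathione genes (-0.02) and chemokines (-0.21) without haemoglobin and immunoglobulin, pan-epithelial (-1.22), junction (-1.28) and unfolded protein response (0.26) genes without PDAC primary 5, and basement membrane (0.01), pan-leukocyte (-0.83), MHC class II (-0.22), B cell (-0.20), T cell (-0.35), neutrophil (-0.21) and chemokine (-0.13) genes without PDAC primary 1. The macrophage median was -0.27, and 1.10 without PDAC primary 5. Further sign changes under other filters and pseudocounts were in macrophage, chemokine, mammary luminal, adipocyte and housekeeping lists. Over 16 alternatives Ly6d was called in 14 (limma adjusted p 2.18e-24 to 0.122), Chi3l3 in 12, Plac8 and Saa3 in 11 each (adjusted p up to 0.173). Scaling moved the median of all genes to -0.12 (quantile), -0.74 (haemoglobin and immunoglobulin left out) and -0.50 (median). With 2 libraries a group and the PDAC primaries unlike each other, differences carried by 1 PDAC primary cannot be assigned to the model.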
